A study of Drosophila melanogaster with 2 samples.

Results

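The genes described here are 10 regulators of the embryonic cell cycle of Drosophila melanogaster: the mitotic cyclin genes CycA, CycB and CycB3, the G1 and S phase cyclin genes CycD and CycE, the kinase genes cdc2 and ial, the Cdc25 phosphatase genes stg and twe, and the kinase inhibitor gene dap. They were chosen by gene symbol, all 10 were found once each among 17301 genes, and they hold 26 annotated transcripts. Poly(A) RNA of pooled embryos aged 0 to 16 h, from flies kept at 25 °C, was sequenced as 1 library per group, 2 libraries in all. In the library labelled Lim3 knockdown the GAL4 driver P{en2.4-GAL4}e22c acted on P{TRiP.JF02125}attP2, an RNA interference construct against the LIM-homeodomain gene Lim3. In the control library the same driver was combined with P{y+t7.7=CaryP}attP2, a transgene at the same landing site without an interference construct. Both crosses also carried 1 copy of P{tGPH}4 and the markers y1, w* and v1, and each group is a single collection that mixes every stage of the first 16 h.

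Cyclins are the regulatory subunits of cyclin-dependent kinases, and each phase of the cycle has its own. Cdk1, encoded by cdc2, drives mitosis when bound to cyclin A, B or B3, and it is held inactive by Wee1 and Myt1 kinases until a Cdc25 phosphatase removes their phosphates. The fly embryo starts with rapid syncytial cycles that run on maternal RNA, and from cellularization onwards zygotic stg transcription times each division. Most cells then stop dividing, a step in which dap, an inhibitor of cyclin E and Cdk2, takes part.

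Levels are given in FPKM (fragments scaled to transcript length and library size), summed over the transcripts of a gene. The smallest values in each file put the depth near 32.5 (knockdown-labelled library) and 22.2 (control library), in units of 1e6 fragments. Brackets give exact 95% intervals, which depend on that depth and carry only the error of counting, since 1 library against 1 library has no replicate check. Lim3 itself was at 18.5 FPKM in the knockdown-labelled library against 5.81 FPKM in the control library. Its level was thus higher where the label names a knockdown, and the source of this difference was not tested. Both libraries are therefore called by their labels throughout, and no direction below is credited to loss of Lim3. Whether the 2 files were exchanged was not tested, and an exchange would turn round every difference, ratio and order given here. For the 8167 genes that had at least 5 FPKM in each library the median log2 ratio was -0.08. Scaling the libraries to an equal FPKM sum adds 0.28 to the log2 difference of a well expressed gene and moves the median of all genes to 0.21, so the values below are read first against one another.

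Relative to the control library, the kinase gene ial was the lowest of the 10 in the knockdown-labelled library and the inhibitor gene dap the highest. The ratio of the knockdown-labelled library to the control library was 0.682 to 0.829 for CycA, CycB, CycB3, cdc2, ial and CycD, 0.921 to 1.03 for twe, stg and CycE, and 1.18 for dap. Log2 differences, taken after adding 1 FPKM to each level, ran from -0.54 for ial to 0.24 for dap. None of the 10 reached a 2-fold difference, which 2.39% of the 10576 measured genes (1 FPKM or more in at least 1 library) did. Below 0 lay 8 of the 10 genes, with a median of -0.29, against 56.5% of all measured genes, with a median of -0.04. Centred on the median gene 7 were below 0, and after scaling to an equal sum 5 were (ial, CycB, cdc2, CycD and CycA), so the sign of a single gene can rest on the scale. In bulk RNA, fewer cells of a type and less RNA per cell cannot be told apart.

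**Figure D1:**
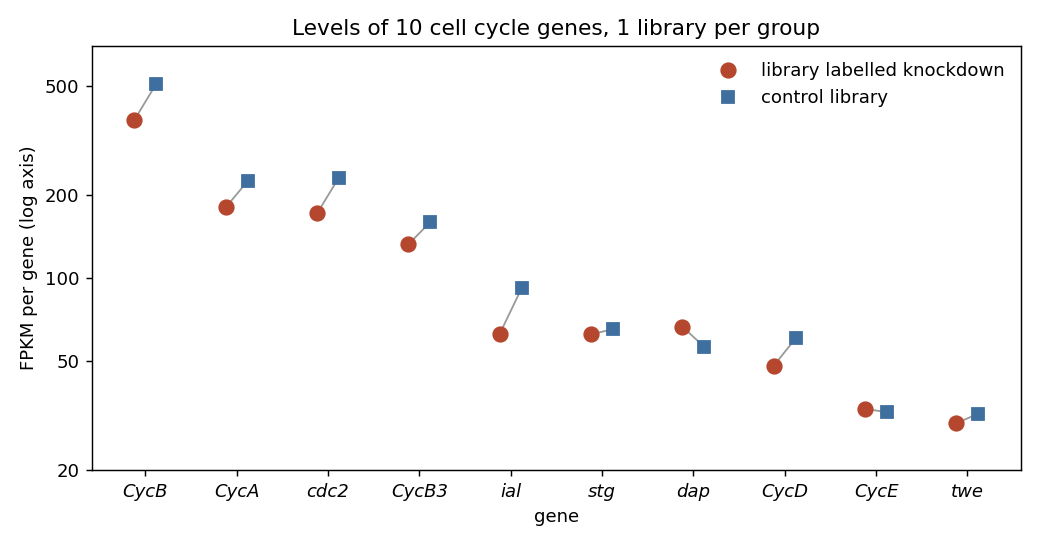
FPKM of each of the 10 genes (log axis) in the knockdown-labelled library (circles) and the control library (squares), 1 value each, ordered by mean level. The levels run from 29.6 FPKM (twe, knockdown-labelled library) to 510 FPKM (CycB, control library), and on the deposited scale only dap and CycE are higher in the knockdown-labelled library (with an equal sum also CycB3, stg and twe).

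All 10 genes were well expressed, between percentile 64.5 (twe) and 97.4 (CycB) of measured genes by mean level, and each value stood on 1345 to 32177 estimated fragments. In the knockdown-labelled library the order of levels was CycB, CycA, cdc2, CycB3, dap, ial, stg, CycD, CycE and twe. In the control library it was CycB, cdc2, CycA, CycB3, ial, stg, CycD, dap, CycE and twe. Counting intervals overlapped between dap and ial and between ial and stg in the knockdown-labelled library. In the control library they overlapped between cdc2 and CycA, between CycD and dap and between CycE and twe. The largest move was that of dap, which ranked 5 in the knockdown-labelled library against 8 in the control library.

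**Figure D2:**
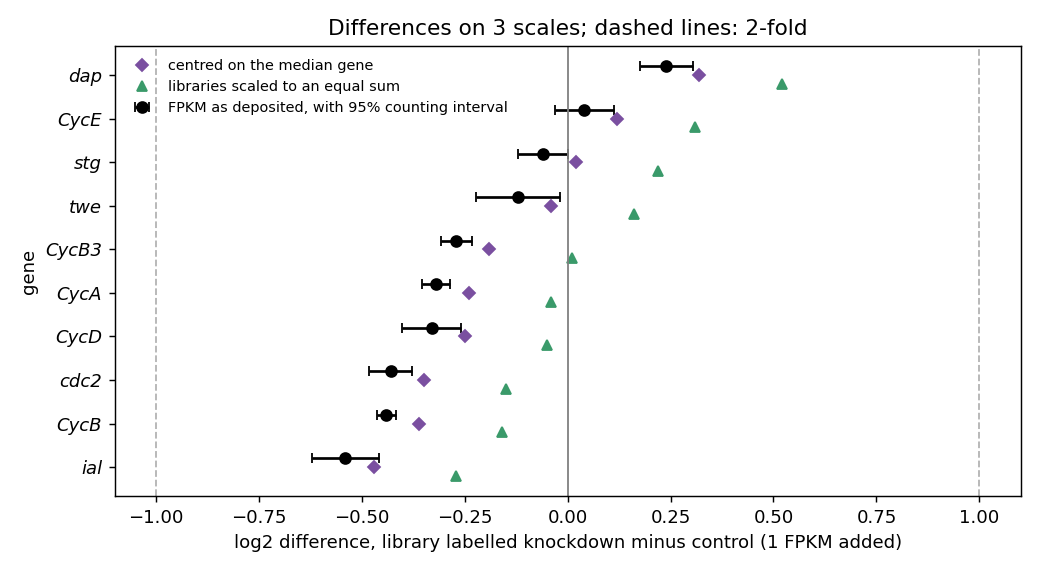
Log2 difference of each gene, knockdown-labelled library minus control, on the deposited scale (circles with 95% counting intervals), centred on the median gene (diamonds) and with the libraries scaled to an equal sum (triangles). Dashed lines mark a 2-fold difference; the other scales shift all genes together, so they leave the order as it is by construction.

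CycB, which encodes a partner of Cdk1 in mitosis, was the most abundant of the 10. The gene (FBgn0000405) lies on the minus strand of 2R from 22803521 to 22806948 in Release 6 coordinates, which are used for every gene here. It was at 376 FPKM in the knockdown-labelled library against 510 FPKM in the control library, a ratio of 0.738 (0.727 to 0.750) and a log2 difference of -0.44. Only 8.13% of measured genes had a lower difference.

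CycA (FBgn0000404, 3L, minus strand, 11826719 to 11833578) encodes the cyclin that is destroyed first as cells enter mitosis. Its level was 181 FPKM in the knockdown-labelled library against 226 FPKM in the control library, a ratio of 0.802 (0.783 to 0.820) and a log2 difference of -0.32. CycB3 (FBgn0015625, 3R, minus strand, 24867934 to 24870816), whose product is destroyed last, was at 133 FPKM and 160 FPKM in the same order of libraries, a ratio of 0.829 (0.807 to 0.851) and a log2 difference of -0.27. The sum of the mitotic cyclins was 689.8 FPKM in the knockdown-labelled library against 895.6 FPKM in the control library.

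A ratio of genes within a library does not depend on the scale between libraries, and 27 such ratios were formed, from pairs chosen with these data known, with approximate 95% counting intervals in brackets. CycB stood at 2.08 times CycA in the knockdown-labelled library against 2.26 times in the control library, a ratio of ratios of 0.921 (0.895 to 0.947). CycB3 per CycA was 0.734 in the knockdown-labelled library against 0.710 in the control library (1.03, 0.998 to 1.07). CycB was thus lower relative to CycA beyond counting error, while the ratio of CycB3 to CycA stayed within it.

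The kinase gene cdc2 (FBgn0004106, now Cdk1; 2L, minus strand, 10384739 to 10386262) was at 172 FPKM in the knockdown-labelled library against 232 FPKM in the control library. The ratio was 0.740 (0.714 to 0.768) and the log2 difference -0.43. As deposited, CycB per cdc2 kept its proportion within counting error, at 2.19 in each library (ratio of ratios 0.997, 0.958 to 1.04). CycA per cdc2 was 1.05 in the knockdown-labelled library against 0.971 in the control library (1.08, 1.04 to 1.13). This exchanges the order of these genes, although their counting intervals overlapped in the control library. CycB3 per cdc2 was 0.771 in the knockdown-labelled library against 0.689 in the control library (1.12, 1.07 to 1.17). These ratios change with transcript length, as cdc2 is shorter than the cyclin genes. With the length trend described below removed, cdc2 was at -0.28, CycB at -0.43, CycA at -0.34 and CycB3 at -0.29.

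The Cdc25 phosphatase genes, which activate Cdk1, were closer to level than cdc2 on the deposited scale, but with an equal FPKM sum stg was at 0.22 and twe at 0.16, against -0.15 for cdc2. String, encoded by stg (FBgn0003525, 3R, minus strand, 29251826 to 29255800), is the phosphatase of zygotic divisions. Its gene was at 62.5 FPKM in the knockdown-labelled library against 65.2 FPKM in the control library, a ratio of 0.958 (0.918 to 0.999) and a log2 difference of -0.06. Twine, encoded by twe (FBgn0002673, 2L, minus strand, 16259414 to 16261877), serves meiosis and the maternal cycles. It was at 29.6 FPKM in the knockdown-labelled library against 32.2 FPKM in the control library (0.921, 0.858 to 0.989; log2 -0.12). The ratio of stg to twe was 2.11 in the knockdown-labelled library against 2.03 in the control library, within counting error (1.04, 0.959 to 1.13). Per cdc2, stg was 0.363 in the knockdown-labelled library against 0.281 in the control library, 1.29 times as high (1.22 to 1.37).

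Wee1, the opposing kinase gene and not among the 10, was at 24.7 FPKM in the knockdown-labelled library against 33.5 FPKM in the control library (0.737, 0.692 to 0.786). The level of stg per Wee1 was therefore 2.53 in the knockdown-labelled library against 1.95 in the control library, a ratio of ratios of 1.30 (1.20 to 1.40). For twe per Wee1 the values were 1.20 in the knockdown-labelled library against 0.960 in the control library (1.25, 1.14 to 1.37). Myt1, which encodes the other inhibitory kinase, was nearly level at 9.97 FPKM in the knockdown-labelled library against 10.1 FPKM in the control library.

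The lowest of the 10 was ial (FBgn0024227, now aurB; 2L, minus strand, 10856797 to 10858094), which encodes Aurora B, the kinase of the chromosomal passenger complex that corrects spindle attachments and directs cytokinesis. It was at 62.7 FPKM in the knockdown-labelled library against 91.9 FPKM in the control library. The ratio was 0.682 (0.644 to 0.722), the log2 difference -0.54, and 3.84% of measured genes lay lower. Of its partners in the complex, the scaffold gene Incenp was at 65.6 FPKM in the knockdown-labelled library against 96.1 FPKM in the control library (0.682, 0.657 to 0.709). The Survivin gene Det was at 45.7 FPKM and 68.4 FPKM in the same order (0.668, 0.611 to 0.731).

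Proportions among these 3 genes stayed within counting error. The ratio of ial to Incenp was 0.956 in both libraries (ratio of ratios 1.00, 0.934 to 1.07), and that of ial to Det was 1.37 in the knockdown-labelled library against 1.34 in the control library (1.02, 0.919 to 1.13). The Borealin gene borr departed from them, at 72.2 FPKM in the knockdown-labelled library against 83.8 FPKM in the control library, so that ial per borr was 0.869 and 1.10 in that order (0.792, 0.733 to 0.856). Aurora A, encoded by aur, was at 29.2 FPKM in the knockdown-labelled library against 39.4 FPKM in the control library (0.742, 0.689 to 0.799).

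Among the G1 regulators, CycD (FBgn0010315, X, minus strand, 15906822 to 15909676), whose cyclin promotes growth and cycle entry with Cdk4, was at 48.0 FPKM in the knockdown-labelled library against 60.4 FPKM in the control library. The ratio was 0.795 (0.756 to 0.836) and the log2 difference -0.33. Its kinase gene Cdk4 was level, at 30.3 FPKM in each library, so CycD per Cdk4 was 1.58 in the knockdown-labelled library against 1.99 in the control library (0.796, 0.725 to 0.874).

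CycE (FBgn0010382, 2L, minus strand, 15727581 to 15748150), whose cyclin starts S phase with Cdk2, was at 33.5 FPKM in the knockdown-labelled library against 32.5 FPKM in the control library. On the deposited scale its interval was the only interval among the 10 that held equal levels (1.03, 0.979 to 1.08; log2 0.04). With an equal FPKM sum CycE was at 0.31 and CycB3 at 0.01, so which intervals hold equal levels rests on the scale. The share of all measured genes whose interval excludes equal levels is not given here, so no count of members is read from it. The Cdk2 gene cdc2c was at 49.98 FPKM in the knockdown-labelled library against 61.4 FPKM in the control library, which put CycE per cdc2c at 0.670 and 0.530 in that order (1.26, 1.16 to 1.37). CycB per CycE was 11.2 in the knockdown-labelled library against 15.7 in the control library, a ratio of ratios of 0.717 (0.681 to 0.755).

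The inhibitor gene dap (FBgn0010316, 2R, plus strand, 9712321 to 9716256) was the highest of the 10 by difference. It stood at 66.5 FPKM in the knockdown-labelled library against 56.3 FPKM in the control library, a ratio of 1.18 (1.13 to 1.24) and a log2 difference of 0.24, with 86.3% of measured genes below it. It was also the only gene of the 10 on the plus strand. The level of dap per CycE was 1.99 in the knockdown-labelled library against 1.73 in the control library (1.15, 1.08 to 1.23), and per cdc2c it was 1.33 and 0.917 in that order (1.45, 1.34 to 1.57). Relative to cdc2 the inhibitor was 1.60 times as high (1.51 to 1.69), at 0.387 in the knockdown-labelled library against 0.242 in the control library.

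**Figure D3:**
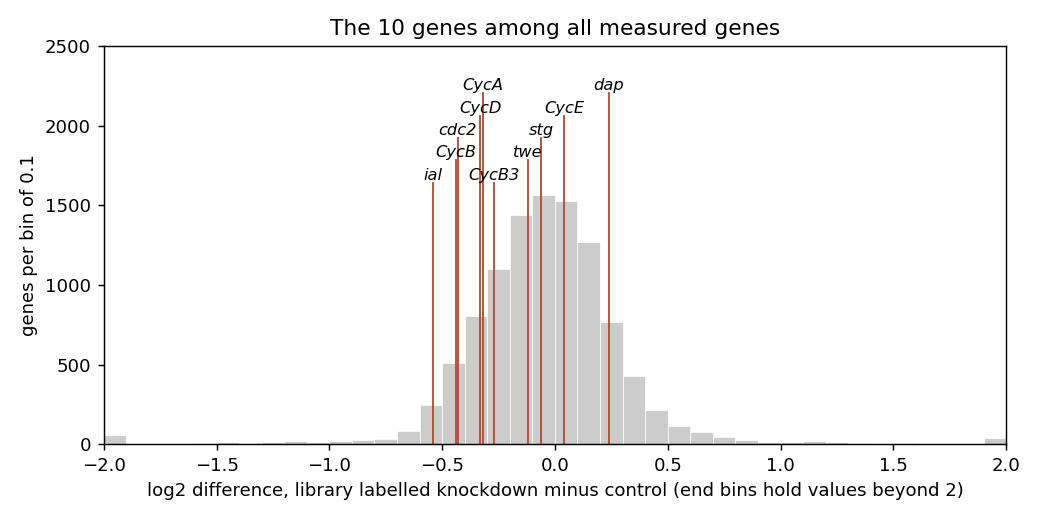
Histogram of the log2 difference (knockdown-labelled library minus control) over 10576 measured genes in bins of 0.1, with the 10 genes as labelled lines. On the left flank lie ial, CycB, cdc2, CycD, CycA and CycB3, between percentile 3.84 (ial) and 20.4 (CycB3); twe (39.5), stg (47.5) and CycE (62.1) lie near the middle, and dap lies on the right flank at percentile 86.3.

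Transcript length moved with the difference across all genes. Genes with a longest transcript of 1000 to 1500 nt had a median log2 difference of -0.12 and those of 3000 to 4000 nt a median of 0.02. Both ial and cdc2, among the lowest of the 10, are also the shortest, at 1183 and 1082 nt, and after the running median of genes of like length was removed they were at -0.41 and -0.28. CycB, CycA, CycD and CycB3, with 2453 to 2916 nt, stayed at -0.43, -0.34, -0.29 and -0.29, and dap with 2530 nt at 0.25. Ratios within a library between genes of unlike length, among them those to cdc2 and that of ial to Incenp, carry this trend as well. The part of length in these differences was not tested beyond this.

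For 7 of the genes several transcripts are annotated, and the length of all 26 in the files equals that of the current annotation. The authors' software divided shared fragments among them, so transcript levels are estimates, and the brackets do not cover error in that division. CycE had the widest span of start sites. Its 2 transcripts from the most upstream start summed to 17.6 FPKM in the knockdown-labelled library against 16.9 FPKM in the control library (1.04, 0.971 to 1.11). The 3 that start 1540 nt further downstream summed to 10.1 FPKM in the knockdown-labelled library against 11.7 FPKM in the control library (0.862, 0.789 to 0.942). FBtr0080777, which starts 16366 nt downstream, was at 5.79 FPKM in the knockdown-labelled library against 3.90 FPKM in the control library (1.49, 1.30 to 1.70).

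The level CycE sum thus hides differences between its forms. By 3' UTR, the forms with 1300 nt summed to 7.84 FPKM in the knockdown-labelled library against 5.63 FPKM in the control library (1.39, 1.25 to 1.56). Those with 1097 nt were at a ratio of 0.953 (0.901 to 1.01). FBtr0080777 is among the forms with 1300 nt, so start and 3' end cannot be told apart for it. FBtr0080777 encodes the shorter protein of 602 residues, against 709 or 712 for the others, and made up 17.3% of CycE in the knockdown-labelled library against 11.98% in the control library. CycE is known for a maternal and a zygotic RNA form whose proteins differ at the amino end. FBtr0305561, the only form of 712 residues, was at 1.04 FPKM in the knockdown-labelled library against 2.70 FPKM in the control library (0.386, 0.304 to 0.488), or 3.11% and 8.30% of the gene. FBtr0080774 and FBtr0080775, the most abundant forms, were nearly level at ratios of 1.02 (0.948 to 1.10) and 1.01 (0.917 to 1.12). Exons of the noncoding genes CR44866 and CR44974, on the opposite strand, overlap CycE by 150 and 98 nt, and both were under 2 FPKM in each library.

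In stg the transcripts start at sites 475 nt apart and encode the same protein. FBtr0085397, from the downstream start, was at 50.8 FPKM in the knockdown-labelled library against 47.8 FPKM in the control library (1.06, 1.01 to 1.12). FBtr0334867, with a 5' UTR of 872 nt in place of 397 nt and a 3' UTR of 435 nt in place of 752 nt, was at 11.6 FPKM in the knockdown-labelled library against 17.4 FPKM in the control library (0.669, 0.613 to 0.729). Its share of stg was 18.6% in the knockdown-labelled library against 26.6% in the control library, so the small difference of the gene was carried by this form.

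The transcripts of twe that were detected differ mainly in the 3' UTR. FBtr0331444, with 348 nt, was at 21.9 FPKM in the knockdown-labelled library against 26.2 FPKM in the control library (0.838, 0.772 to 0.910). FBtr0331445, with 811 nt, was at 7.69 FPKM in the knockdown-labelled library against 5.99 FPKM in the control library (1.28, 1.11 to 1.48). The long form held 26.0% of twe in the knockdown-labelled library against 18.6% in the control library. Exons of twe share 98 nt with those of EndoGI on the opposite strand, which was at 35.4 FPKM in the knockdown-labelled library against 34.9 FPKM in the control library, and the sources used here do not say whether counting used strand.

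CycB3 has a short and a long 3' UTR (445 and 867 nt), and the short form, FBtr0084728, held 30.8% of the gene in each library, so both forms were at a ratio of 0.829. In CycA the form with the 3' UTR of 933 nt, FBtr0304650, was at 48.6 FPKM in the knockdown-labelled library against 55.1 FPKM in the control library (0.883, 0.845 to 0.923), and that of 569 nt, FBtr0076075, at 132 FPKM and 170 FPKM in the same order (0.775, 0.754 to 0.797). CycB was almost wholly FBtr0071911, at 346 FPKM in the knockdown-labelled library against 482 FPKM in the control library, or 92.0% and 94.5% of the gene (0.719, 0.707 to 0.731). Its minor form FBtr0071913 differed the other way, at 11.01 FPKM in the knockdown-labelled library against 8.07 FPKM in the control library (1.36, 1.22 to 1.53), or 2.93% and 1.58% of the gene, and FBtr0309858 was at a ratio of 1.07 (0.978 to 1.16). CycD was mainly FBtr0300391, at 42.0 FPKM in the knockdown-labelled library against 54.8 FPKM in the control library (0.766, 0.726 to 0.808), while FBtr0300393, with a 5' UTR of 567 in place of 259 nt, was at 6.02 FPKM and 5.56 FPKM in that order (1.08, 0.935 to 1.25).

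**Figure D4:**
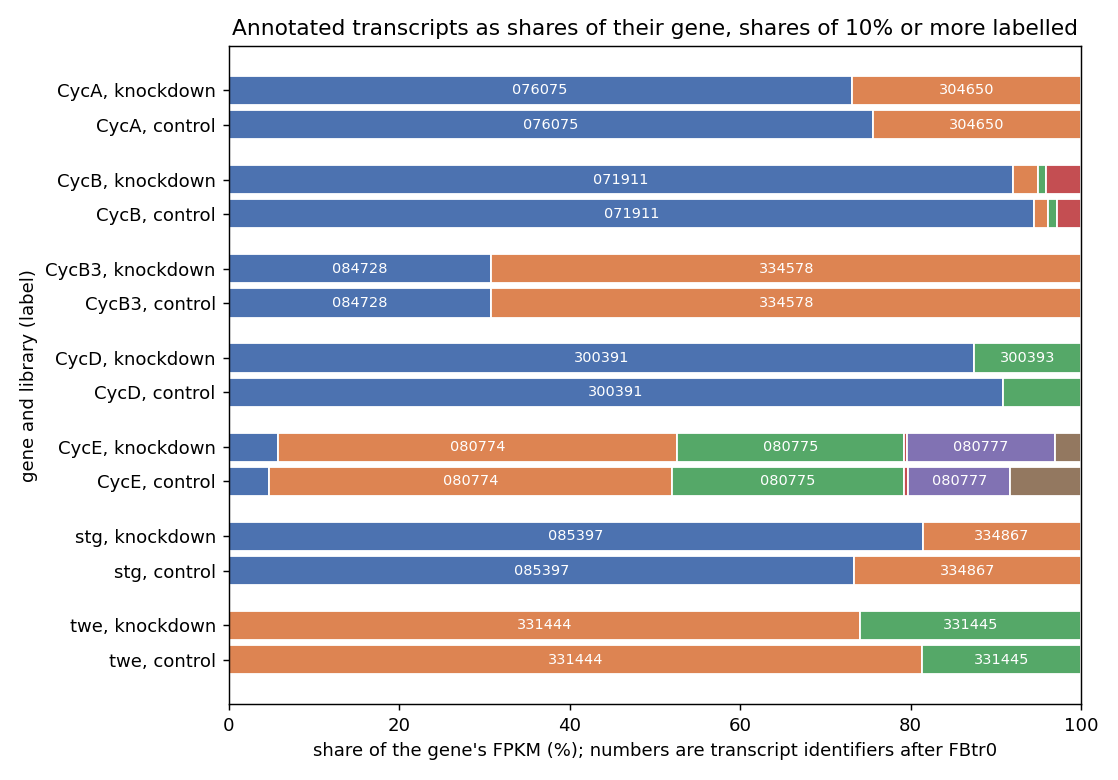
Share of each gene's FPKM (%) held by its annotated transcripts, knockdown-labelled library above and control library below, for the 7 genes with several transcripts; each colour is 1 transcript within a gene. The shares in CycB3 are equal at 30.8%, while stg, twe and CycE differ between libraries.

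Further genes were read from 7 lists of 91 measured genes, 6 of cell cycle partners and 1 of other cyclins and their kinases, many of them with roles outside the division cycle. In these lists 74 genes lay below 0 (81.3%, against 56.5% of all measured genes) and none reached 2-fold in either direction. Centred on the median gene 60 lay below 0, and with the libraries scaled to an equal sum 32 did and every list median was above 0 (0.02 to 0.19), so the list medians that follow hold for the deposited scale. The spindle checkpoint had the lowest median, -0.25, with 8 of 9 genes below 0. Its lowest gene was mad2, whose product blocks the destruction of cyclin B, at 78.9 FPKM in the knockdown-labelled library against 119.5 FPKM in the control library (log2 -0.59), and its highest was Zw10 at 20.4 FPKM and 19.7 FPKM (0.05). Genes of Cdk1 phosphorylation and of mitotic kinases, with partners and regulators such as Incenp and Det, had a median of -0.19, with 13 of 16 below 0. They ran from ball, a histone kinase gene, at 60.2 FPKM in the knockdown-labelled library against 98.0 FPKM in the control library (-0.69) to, among genes at 5 FPKM or more, endos, an inhibitor of the phosphatase that opposes Cdk1, at 135.5 FPKM and 133.0 FPKM (0.03).

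Cyclin destruction by the anaphase-promoting complex (APC/C) also had a median of -0.19, with 14 of 16 genes below 0, and its activators were divided. The mitotic activator gene fzy was at 88.5 FPKM in the knockdown-labelled library against 123.1 FPKM in the control library (0.719, 0.692 to 0.746), and fzy per CycB did not differ beyond counting error (0.973, 0.935 to 1.01). By contrast rap, now fzr, which encodes the activator for cells leaving the cycle, was at 35.7 FPKM in the knockdown-labelled library against 32.1 FPKM in the control library (1.11, 1.05 to 1.18). The activator gene of female meiosis, cort, was at 5.89 FPKM in the knockdown-labelled library against 4.55 FPKM in the control library (log2 0.31), the highest of the list. The lowest was lmgA, a subunit gene, at 14.5 FPKM in the knockdown-labelled library against 26.2 FPKM in the control library (-0.80).

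G1 and S phase partners were closer to level, with a median of -0.12 and 12 of 14 below 0. The retinoblastoma-family gene Rbf2 was lowest, at 21.3 FPKM in the knockdown-labelled library against 29.0 FPKM in the control library (-0.43), and the Cdk subunit gene Cks30A highest, at 46.9 FPKM and 45.1 FPKM (0.06). Cytokinesis and motor genes had a median of -0.18 with 14 of 15 below 0, and the lowest was the kinesin gene ncd at 45.1 FPKM in the knockdown-labelled library against 67.0 FPKM in the control library (-0.56). The genes that control the first cycles ran from -0.47 to 0.67, with 4 of 7 below 0 and a median of -0.19. plu, which encodes a subunit of the kinase that keeps maternal cyclin B translated, was at 35.3 FPKM in the knockdown-labelled library against 49.2 FPKM in the control library (-0.47). Z600, whose product inhibits Cdk1 when the syncytial cycles end, was at 129.2 FPKM in the knockdown-labelled library against 80.7 FPKM in the control library (0.67; ratio 1.60, 1.47 to 1.74).

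**Figure D5:**
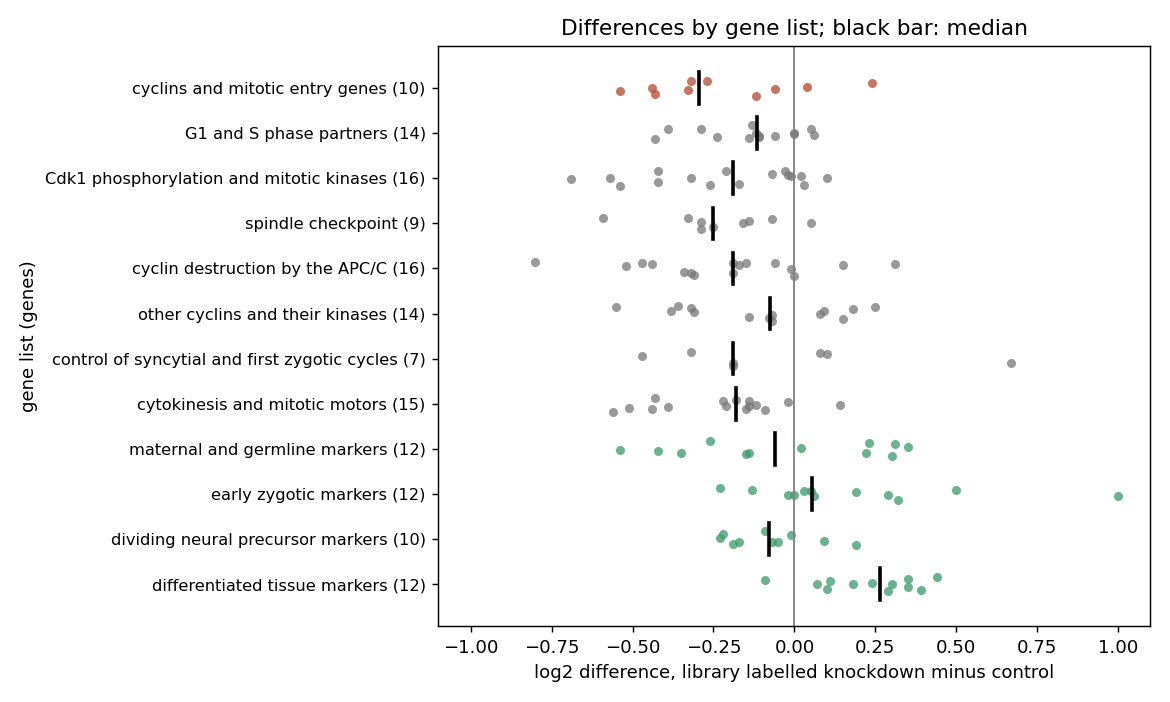
Log2 difference (knockdown-labelled library minus control) of each gene by list, with the number of genes in brackets and the median as a black bar. Red are the 10 genes, grey the lists of cell cycle partners and of other cyclins and their kinases, and green the stage and tissue markers. The medians of the grey lists lie between -0.25 and -0.08 on the deposited scale (0.02 to 0.19 with an equal sum), and that of differentiated tissue markers is 0.27.

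Markers of stage and tissue differed as well, and no marker was at 0 in either library. Of 12 genes of differentiated tissue, 11 were above 0, with a median of 0.27, and their summed level was 3581 FPKM in the knockdown-labelled library against 3086 FPKM in the control library. They ran from Syt1, a synaptic calcium sensor gene, at 5.23 FPKM and 3.57 FPKM (0.44) to the neuronal gene elav at 15.2 FPKM and 16.3 FPKM (-0.09). Of 12 early zygotic genes 8 were above 0, with a median of 0.06 and sums of 256 FPKM in the knockdown-labelled library against 208.7 FPKM in the control library. The cellularization gene bnk was highest at 32.8 FPKM and 15.9 FPKM (1.00, just under 2-fold on this scale), and ftz lowest at 8.54 FPKM and 10.2 FPKM (-0.23).

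Maternal and germline markers were split, 6 above and 6 below 0, with sums of 460 FPKM in the knockdown-labelled library against 477.7 FPKM in the control library. osk, which assembles germ plasm, was at 34.8 FPKM and 27.0 FPKM (0.35), and the anterior determinant gene bcd at 24.5 FPKM and 36.2 FPKM (-0.54), in the same order of libraries. Dividing neural precursor markers summed to 153 FPKM in the knockdown-labelled library against 170.5 FPKM in the control library, with 8 of 10 below 0 and a median of -0.08. Their highest and lowest genes at 5 FPKM or more were ase at 7.30 FPKM and 6.79 FPKM (0.09) and brat at 47.7 FPKM and 55.7 FPKM (-0.22). With an equal sum the medians of these 4 marker lists were all above 0, from 0.17 for neural precursors to 0.54 for differentiated tissue. The part of embryo age and cell makeup in the differences of the 10 genes was not tested.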

How the data were processed

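The authors deposited an FPKM value for each transcript in each library, per the file headers, and the submitters' processing notes name TopHat and Cuffdiff. The sources used here do not give settings, strand handling, genome build or annotation. The libraries came from a directional kit, per the labels' protocols. The files' chromosome names are those of Drosophila Release 5, so gene positions and transcript models were taken by identifier from the Ensembl 115 annotation of Release 6. From the deposited FPKM, transcripts were summed per gene identifier, and 365 of 33887 transcripts without an identifier were left out (0.0227% of FPKM in the knockdown-labelled library, 0.0246% in the control library). Differences are log2((knockdown + 1)/(control + 1)), which understates those of genes with low FPKM, and a 2-fold rule served in place of a test.

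The FPKM times length of 1 fragment was read as the mode of the lowest values of genes with 1 transcript of 1000 to 3000 nt, 30.8 in the knockdown-labelled library, 45.1 in the control library. Estimated fragments gave Clopper-Pearson intervals of FPKM ratios, Poisson intervals of levels and log-normal intervals of ratios of ratios (Python 3.11.15, SciPy 1.17.1). Scripts were tested on simulated data, where interval coverage was checked only for genes with 1 transcript and at a known depth. It was not checked for genes with several transcripts or at the estimated depth. Groups follow the sample titles. The members and lists were chosen with earlier results of these data known. The naming rule took all 10 genes, transcripts of 10% or more of a gene, and from each list the highest and lowest gene at 5 FPKM or more in at least 1 library, of which 1 is not reported here. Genes of the lists and transcripts named beyond it were chosen after their values were seen. List symbols matched for all 137 genes, 6 through synonyms. Promoter and protein sequences were not used here.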

Additional observations from a re-analysis of the deposited data

How the results depend on the processing

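With 1 library per group there was no replicate to leave out, and depth limits only the intervals, not the spread between embryo collections. No paired analysis was possible because each group has 1 library and no test was made. No gene of the 10 reached 2-fold under any of the 8 alternatives. Their median log2 difference was -0.01 with an equal FPKM sum and -0.21 when centred on genes at 5 FPKM or more, and 5 rather than 8 lay below 0 with the equal sum. These shifts follow from the rescaling itself. The order of the 10 differences was not the same with a pseudocount of 5 FPKM, with the length trend removed, or with only the most abundant transcript of each gene. In that last setting stg was at 0.09 and 7 of the 10 lay below 0. Over all genes, 177 were at least 2-fold higher and 210 lower with a pseudocount of 0.1 FPKM, and 52 higher and 90 lower with a pseudocount of 5 FPKM. With an equal sum 168 were higher and 109 lower, against 108 and 145 as deposited. With fragments estimated from transcripts of 500 to 1000 nt the interval of stg reached 1.00 and no longer excluded equal levels. The early zygotic gene bnk passed 2-fold with a pseudocount of 0.1 FPKM, with either rescaling and with the length trend removed.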

Other observations

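The other cyclins and their kinases, many of them with roles outside the division cycle, lay on both sides of 0. In this list of 14 genes the median log2 difference was -0.08, with 9 below 0 and none at 2-fold. With an equal FPKM sum the median was 0.19. The lowest was Cdk7, which encodes a kinase of transcription and of Cdk activation, at 17.8 FPKM in the knockdown-labelled library against 26.6 FPKM in the control library (-0.55; ratio 0.672, 0.610 to 0.740). Its cyclin gene CycH was at 28.7 FPKM in the knockdown-labelled library against 37.6 FPKM in the control library (0.765, 0.698 to 0.838). The transcription cyclin genes CycK and CycT differed in sign, CycK at 82.7 FPKM in the knockdown-labelled library against 106.7 FPKM in the control library (0.775, 0.745 to 0.806) and CycT at 17.1 FPKM and 15.4 FPKM in that order (1.12, 1.05 to 1.19). Eip63E, a kinase gene first found through its response to ecdysone, was highest, at 35.9 FPKM in the knockdown-labelled library against 30.1 FPKM in the control library (0.25). CycG, at 338.9 FPKM in the knockdown-labelled library against 357.8 FPKM in the control library, was close to level.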
